A study of Mus musculus with 9 samples.

Results

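Cancer-associated fibroblasts (CAF) labelled beta-catenin -/- were compared with normal fibroblasts (NF) labelled wild type. The comparison takes 6 of the 9 RNA-seq libraries of the series, chosen by their source and genotype labels alone, with 3 libraries in each group. Both groups carry the strain label C57BL/6, and both were grown in DMEM with fetal serum and antibiotics. They therefore differ in 2 labels at once, the origin of the cells and the genotype, and the contribution of each cannot be told apart here. The other 3 libraries, wild-type CAF, entered the fit and so shared in its gene filter, scaling and estimate of spread. They were not part of the contrast between the 2 groups. The sources used here do not give the way of deletion, the tumour, the animals or the tissue of the normal cells. The labels do not say whether the 3 libraries of a group are separate cultures or animals, so each p-value below rests on a spread between libraries that may be technical.

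Beta-catenin links cadherins to the actin cytoskeleton at cell contacts and, when Wnt ligands stop its destruction, enters the nucleus and switches on genes together with TCF and LEF factors. In tumours, fibroblasts lay down collagen and fibronectin, send growth factors and chemokines to neighbouring cells, and can take on contractile proteins. A fibroblast that lacks beta-catenin would lose 2 inputs, adhesion and Wnt-dependent transcription, so the Wnt target, cadherin and matrix genes are the natural readouts of such a comparison.

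Counts totalled 15433810 to 21243560 in the 6 libraries, and 14314 genes were tested. The libraries expressed some fibroblast genes and lacked others. Vim, the intermediate filament of mesenchymal cells, was at 5018 to 5796 CPM (read counts per scaled library total) in the labelled-deficient libraries and 3817 to 5175 in NF. Pdgfra, a growth factor receptor of fibroblasts, was at 269 to 335 CPM and 193 to 349 CPM. Thy1, a surface protein of many fibroblasts, was under 1 CPM in all 6 libraries, as were Pi16 and Dpt, and Tcf21 had no counts. Lum, a collagen-binding proteoglycan, reached no more than 6.27 CPM. Of 10 lists of markers, 9 of them for cells other than the common fibroblast, none had a member called with all libraries; members called without NF replicate 1 are given beside the gene groups they moved with. The most abundant marker of each other list was Fn1 for myofibroblasts (726 to 8111 CPM), Cspg4 for pericytes (151 to 1131), Flt1 for endothelium (38.8 to 196), Pkp1 for epithelium (57.5 to 140), Laptm5 for leukocytes (20.6 to 196), Mitf for melanocytes (6.95 to 15.2), Lpl for adipocytes (0.246 to 1.96), Sox2 for Schwann cells (223 to 496) and Chrna1 for skeletal muscle (359 to 517). The defining leukocyte gene Ptprc stayed at or under 1.24 CPM, the endothelial genes Pecam1 and Kdr under 0.60 CPM, and the epithelial gene Epcam under 0.43 CPM.

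Ctnnb1, which encodes beta-catenin and lies on chromosome 9 from 120929216 to 120960507 (GRCm38, plus strand), was expressed in every library. It stood at 668, 637 and 627 CPM in the labelled-deficient replicates 1 to 3 and at 713, 799 and 669 CPM in NF replicates 1 to 3. All 3 labelled-deficient libraries were below all 3 NF libraries, by a margin of less than 1 part in 100 at the nearest pair. The log2 fold change of -0.17 ± 0.14 (SE) did not pass the edgeR quasi-likelihood test (adjusted p = 0.620). An exact two-sided permutation test gave p = 0.1, the smallest that 3 against 3 libraries allow. A count per gene sums reads of all exons, and the sources used here do not name the deleted part, so the level is no check of the genotype label. The libraries are therefore called labelled-deficient throughout.

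The 6 libraries did not fall into their 2 labelled groups. NF replicate 1 resembled the labelled-deficient libraries more than it resembled the other NF libraries. Its median absolute difference over all tested genes was 0.15 to 0.20 on the log2 CPM scale from the labelled-deficient libraries, but 0.50 from NF replicate 2 and 0.51 from NF replicate 3. Its nearest library was labelled-deficient replicate 3, from which 5.4% of genes differed by at least 2-fold. From NF replicates 2 and 3, 22.5% and 25.1% of genes differed by that much. NF replicates 2 and 3 were 0.30 apart, and 12.9% of genes differed by 2-fold between them.

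**Figure D1:**
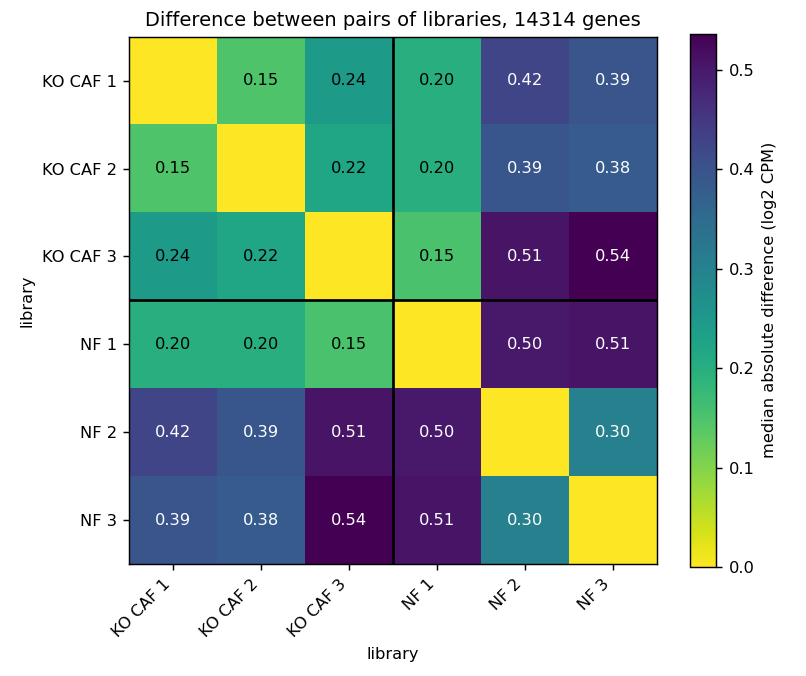
Median absolute difference in log2 CPM over 14314 genes for each pair of libraries, darker for a larger difference (KO CAF, CAF labelled beta-catenin -/-; NF, normal fibroblasts; numbers are replicates). NF 1 differs from the KO CAF libraries by 0.15 to 0.20 and from NF 2 and NF 3 by 0.50 and 0.51.

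The same held gene by gene. NF replicate 1 was nearer to the mean of its own group than to that of the other group for 16.9% of genes, while the share for the other 5 libraries ran from 58.5% to 71.6%. Within the labelled-deficient group, replicates 1 and 2 differed by 0.15, and replicate 3 differed from them by 0.24 and 0.22. No 2 libraries agreed within sampling noise, as the lowest chi-square value per gene in any pair was 19.2. Whether the label of NF replicate 1 is right was not tested. No member of any gene list was called with all libraries, so the list counts below come from the fit without it, beside the values over all libraries for the genes and lists the text turns on.

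With all libraries, no gene passed an adjusted p of 0.05 in edgeR's quasi-likelihood test (0% of 14314 genes, smallest adjusted p 0.601). At an unadjusted p under 0.05, 310 genes were higher (2.17%) and 392 lower (2.74%) in the labelled-deficient libraries (4.9% in all). DESeq2 called 6 genes, all higher, and limma-voom called 0, with 858 and 1144 genes at an unadjusted p under 0.05. The 6 genes were Igsf10, Masp1, Arhgef5, Arrdc4, C1s1 and Frzb, named because DESeq2 called them. Frzb encodes a secreted Wnt antagonist, and C1s1 and Masp1 encode serine proteases of the complement system. Masp1 was at 9.06, 12.3 and 7.51 CPM in the labelled-deficient libraries and at 3.23, 1.07 and 3.57 CPM in NF, a log2 fold change of 1.89 ± 0.41 in DESeq2 (adjusted p = 0.0224). Frzb was at 1.93, 7.11 and 3.41 CPM against 1.20, 0.682 and 0.984 CPM (2.14 ± 0.49 in DESeq2, adjusted p = 0.0339). Both genes were higher in every labelled-deficient library than in any NF library.

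Genes whose groups did not overlap were found in both directions. All 3 labelled-deficient libraries lay above all 3 NF libraries for 462 genes (3.23%) and below them for 521 (3.64%), or 6.87% of genes in all. Of all ways to order 3 against 3 libraries, a share of 0.1 keeps the groups apart. The share of genes found was not above it, so the count alone shows no difference between the groups. Over all genes, the absolute log2 fold change had a median of 0.26, against 0.42 without NF replicate 1. The genes below were those with the widest gap between the groups among genes of at least 5 CPM on average, and they were chosen by these values, so the gap itself is a description.

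The 10 widest gaps among genes higher in every labelled-deficient library included those of Col3a1, Ly6a, Mx1 and H2-Q4. Col3a1, a fibrillar collagen on chromosome 1, was at 394, 389 and 387 CPM in the labelled-deficient libraries and 260.2, 203 and 244 CPM in NF. The 3 labelled-deficient values lay within 2% of each other, and the highest NF value was well below them (log2 fold change 0.73 ± 0.23). Ly6a, a surface protein induced by interferon and also known as Sca-1, was at 31.4, 47.5 and 27.7 CPM against 14.6, 15.4 and 7.20 CPM. Mx1, an antiviral GTPase, was at 5.72, 8.82 and 15.1 CPM against 4.05, 1.15 and 0.246 CPM. H2-Q4, a class I histocompatibility gene, was at 28.3, 38.0 and 42.0 CPM against 21.0, 9.89 and 16.4 CPM. In all 3, the lowest labelled-deficient value was above the highest NF value, and for Mx1 and H2-Q4 that highest NF value came from replicate 1. Gbp5, an interferon-induced GTPase, had a log2 fold change of 2.11 ± 0.79, Kif21b, a kinesin, 1.56 ± 0.42, Arrdc4, an arrestin-like protein of glucose uptake control, 1.25 ± 0.25, and St3gal6, a sialyltransferase, 0.82 ± 0.26. Olfr56 (2.14 ± 0.78), whose annotated span on chromosome 11 encloses the interferon-induced gene Ifi47 on the same strand, cannot be told apart from it with certainty. Masp1 completes the set.

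Among genes lower in every labelled-deficient library, several were far higher in NF replicate 2 than in any other library. Lcn2, a secreted iron-siderophore binding protein, was at 2.64, 2.13 and 0.0577 CPM in the labelled-deficient libraries and at 3.99, 123 and 5.78 CPM in NF. Prl2c2, a prolactin-family hormone also called proliferin, was at 2.38, 1.92 and 0.520 CPM against 3.93, 59.9 and 3.51 CPM. Cyp1a1, a target of the aryl hydrocarbon receptor, was at 3.15, 3.43 and 1.73 CPM against 4.69, 36.9 and 4.12 CPM. NF replicate 2 was far above the rest in all 3, while NF replicates 1 and 3 were nearer to labelled-deficient replicates 1 and 2. Labelled-deficient replicate 3 was the lowest library of each, and for Lcn2 it was far below the others. Prl2c3 had the same form, with 62.0 CPM in NF replicate 2 and 6.59 and 7.14 CPM in the other NF libraries; it is a close copy of Prl2c2, so their reads may be split between them. Greb1, an oestrogen-induced gene, was at 33.5 CPM in NF replicate 2 and 12.8 and 13.5 CPM in the others.

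Other lower genes of this choice had small and even differences, which describe only the genes chosen. Idnk, a gluconokinase, was at 8.42, 9.08 and 8.78 CPM in the labelled-deficient libraries and 10.9, 11.04 and 11.01 CPM in NF. Alms1, a centrosome protein, was at 7.004, 7.16 and 7.10 CPM against 9.25, 10.9 and 10.7 CPM. The choice of these genes required NF replicate 1 to lie above every labelled-deficient library, so its side is no finding. For Alms1 it was the lowest NF library. Their log2 fold changes were -0.33 ± 0.16 and -0.54 ± 0.18, with adjusted p = 0.601 in edgeR for both. Cklf had a like difference of -0.46 ± 0.22. Dpep2 changed more and less evenly, with -1.13 ± 0.34, and NF replicate 1 was at 6.02 CPM where NF replicates 2 and 3 were at 10.3 and 9.04 CPM.

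**Figure D2:**
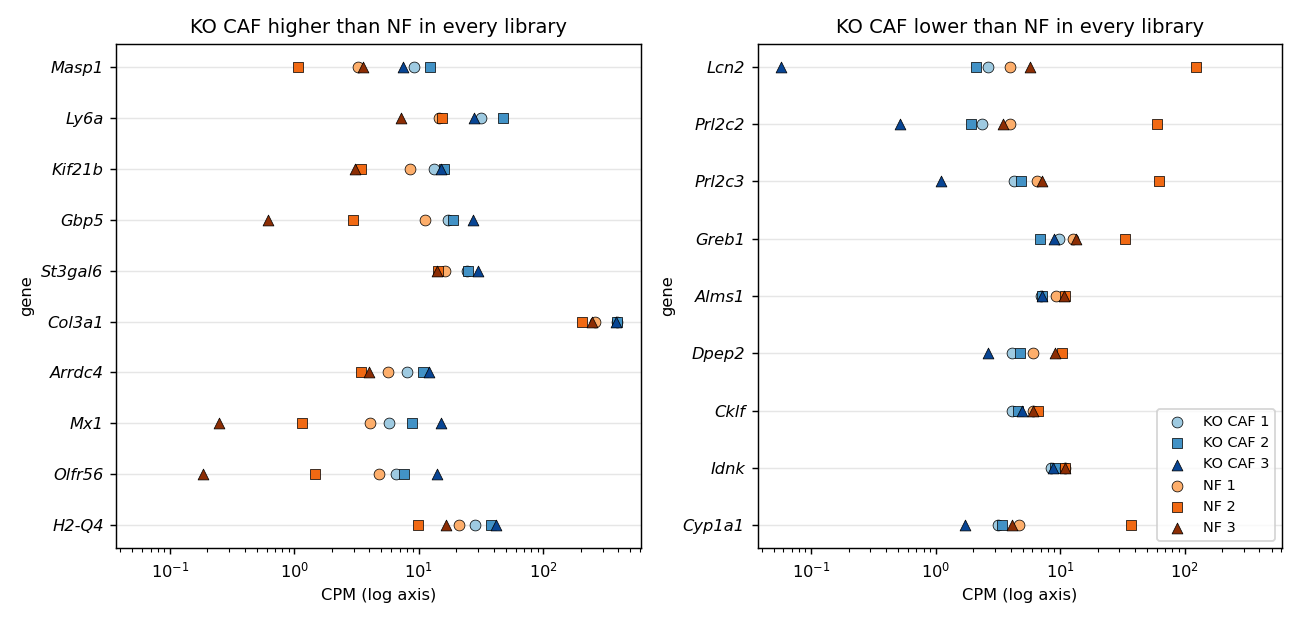
CPM (log axis) of genes of at least 5 CPM with the widest gap between the groups, one point per library. On the left, each KO CAF library (blue) lies above each NF library (orange and brown), and on the right below; NF 2 is the highest library for Lcn2, Prl2c2, Prl2c3, Greb1 and Cyp1a1, and KO CAF 3 is far below the others for Lcn2.

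NF replicate 1 was left out after it was seen to stand apart, so the calls without it describe the remaining libraries and are no independent test. Without it, 1620 genes were higher (11% of 14759 tested) and 1039 lower (7.04%) in the labelled-deficient libraries by edgeR. Together they were 18% of tested genes. Of these, 962 and 341 changed by 1 or more on the log2 scale, and the median log2 fold change was 1.16 for called higher genes and -0.80 for called lower genes. The groups of 3 and 2 libraries did not overlap for 3929 genes above (27.4%) and 3884 below (27.1%) of the 14314 genes tested with all libraries, or 54.6% of them. Groups of 3 and 2 separate more easily than groups of 3 and 3, so this share is not on a par with that over all libraries. Leaving out any other single library gave 0 calls by edgeR, with 223 to 541 genes at an unadjusted p under 0.05. When a further library was left out as well, between 762 and 1179 genes were called higher and between 254 and 987 lower.

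For genes called without it, the level of NF replicate 1 took no part in the call. On a line from the mean of NF replicates 2 and 3 (0) to the mean of the labelled-deficient libraries (1), NF replicate 1 had a median place of 1.09 among 1618 higher genes and 1.20 among 1013 lower genes that were tested in both fits. It was nearer to the labelled-deficient mean for 1593 of the higher genes (98.5%) and 1000 of the lower genes (98.7%). For 415 and 378 of them it lay beyond all 3 labelled-deficient libraries, on the far side from the other NF libraries. Only 8 and 17 genes had NF replicate 1 within or past the values of NF replicates 2 and 3.

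**Figure D3:**
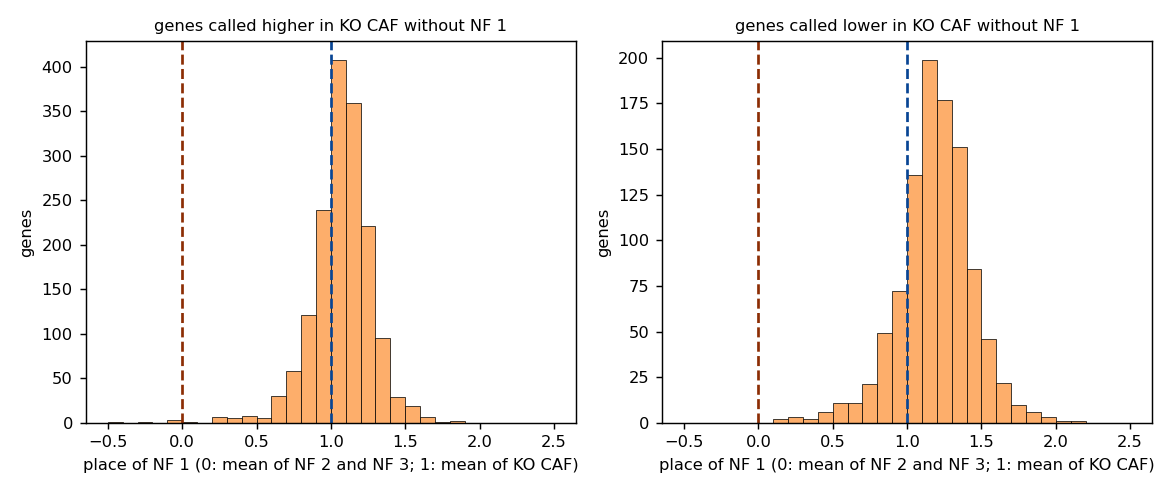
Number of genes by the place of NF 1 between the mean of NF 2 and NF 3 (0, brown line) and the mean of the KO CAF libraries (1, blue line), on the log2 CPM scale, for genes called higher (left) or lower (right) in KO CAF without NF 1. The medians are 1.09 and 1.20, and values beyond the axis are drawn at its ends.

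Among genes called higher without NF replicate 1, those named here had at least 5 CPM on average, groups that did not overlap and the 10 largest log2 fold changes. Ifi44, an interferon-induced protein, was at 254, 348 and 452 CPM in the labelled-deficient libraries, 256 CPM in NF replicate 1, and 39.7 and 6.89 CPM in NF replicates 2 and 3. Ak5, an adenylate kinase, was at 15.2, 24.3 and 31.7 CPM, 20.2 CPM in NF replicate 1, and 2.30 and 0.246 CPM in the others. Adamtsl3, a secreted matrix glycoprotein, was at 77.1, 56.2 and 137 CPM, 104 CPM in NF replicate 1, and 12.2 and 1.66 CPM in the others. In each, NF replicate 1 lay within the range of the labelled-deficient libraries, and NF replicate 3 was the lowest library. Their log2 fold changes were 3.91 ± 0.78, 4.13 ± 0.66 and 3.67 ± 0.83 (edgeR adjusted p = 0.0148, 0.00759 and 0.0203) in the fit that left it out. With all libraries they were 1.81 ± 0.99, 1.66 ± 0.99 and 1.20 ± 1.07, with adjusted p from 0.601 to 0.640. The others of this set were Rsad2, Abca8b, Mx1, Ppef1, Ifit3, Ifi206 and Pcdhac2, at 3.62 to 3.82.

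On the lower side, NF replicate 2 again held the highest values. Lcn2 had the largest fall without NF replicate 1, with a log2 fold change of -5.33 ± 1.17 (edgeR adjusted p = 0.0186), followed by Prl2c2 with -4.31 ± 1.02. Arc, an immediate early gene of the cytoskeleton in neurons, was at 3.47, 2.28 and 0.866 CPM in the labelled-deficient libraries, 1.96 CPM in NF replicate 1, and 47.9 and 5.23 CPM in NF replicates 2 and 3. Megf10, a receptor for engulfment, was at 9.12, 8.56 and 10.2 CPM, 11.8 CPM in NF replicate 1, and 90.5 and 11.6 CPM in the others. Nckap1l, a regulator of actin best known from blood cells, was at 6.04, 5.61 and 0.577 CPM, 2.09 CPM in NF replicate 1, and 34.4 and 17.7 CPM in the others. NF replicate 2 held the highest value of all 3 genes, and for Megf10 NF replicate 3 was below NF replicate 1. The rest were Serpina3m, Prl2c3, Cyp1a1, Padi2 and Sgsm1, at -3.68 to -2.78.

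Interferon-response genes formed the list with the largest median change. These genes are switched on when interferons bind their receptors on the cell surface, and many carry the interferon-stimulated response element in their promoters. Their products degrade viral RNA, tag proteins or block translation. The letters TTTCNNTTTC of that element, searched on both strands from 250 bases before to 50 after the start site, were present in 18 of 34 list genes found in the RefSeq promoter table (52.9%), against 3.99% of all 27025 genes there. The list was put together from known interferon targets, so such a share describes the list and not a change in these libraries. The stretches upstream of the start site of the 3 called members with the largest fold change and a match are printed 5′ to 3′ on the strand of the gene (RefSeq, GRCm38.p6), with each match in capitals. They are chr12:26456533-26456602 (minus strand) for Rsad2, chr19:34583343-34583446 (plus) for Ifit3 and chr19:34640755-34640843 (plus) for Ifit1.
Rsad2: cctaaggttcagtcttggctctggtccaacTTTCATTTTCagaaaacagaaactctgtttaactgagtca
Ifit3: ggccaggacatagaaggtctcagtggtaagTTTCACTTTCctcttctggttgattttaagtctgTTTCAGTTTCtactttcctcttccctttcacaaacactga
Ifit1: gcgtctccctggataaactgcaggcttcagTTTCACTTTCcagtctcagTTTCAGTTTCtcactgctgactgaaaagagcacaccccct

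Of these promoters, those of Ifit3 and Ifit1 held 2 matches and that of Rsad2 held 1. Rsad2 encodes viperin, an antiviral enzyme, and was at 100.2, 124 and 222 CPM in the labelled-deficient libraries, 89.1 CPM in NF replicate 1, and 18.5 and 2.22 CPM in NF replicates 2 and 3. Ifit3, which binds viral RNA complexes, was at 225, 284 and 471 CPM, 221 CPM in NF replicate 1, and 45.2 and 5.91 CPM in the others. Ifit1, which binds RNA lacking host cap marks, was at 301, 305 and 550 CPM, 317 CPM in NF replicate 1, and 56.9 and 7.08 CPM in the others. All 3 genes were highest in labelled-deficient replicate 3 and lowest in NF replicate 3, and the labelled-deficient libraries lay above all NF libraries for Rsad2 and Ifit3 but not for Ifit1. With all libraries, 0 of 48 interferon-response genes were called (edgeR), and 9 were higher in every labelled-deficient library, beside 3.23% of all genes. The median log2 fold change of the list was 1.38 beside -0.03 for all genes. In the fit without NF replicate 1, 43 rose (beside 11% of all genes) and 0 fell, with a median of 2.63. With a further library left out, 17 to 42 rose. The 5 that did not pass were Ifi27, Oas1a, Oas1b, Oas1g and Oas2.

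The summed level of the interferon list graded the libraries. It was 3906, 4777 and 7264 CPM in the labelled-deficient libraries and 4438, 1390 and 477 CPM in NF replicates 1 to 3, so NF replicates 1 and 3 differed by more than any labelled-deficient library differed from NF replicate 1. The most abundant members included Lgals3bp, a secreted galectin-binding glycoprotein, at 276 to 470 CPM in the labelled-deficient libraries, 328 CPM in NF replicate 1, and 142 and 66.0 CPM in the others. Class I antigen presentation genes, many of which interferons also induce, had members called higher and none called lower. Of 14, 0 were called with all libraries, 6 were higher in every labelled-deficient library (H2-D1, H2-K1, H2-Q4, Psmb8, Psmb9 and Psmb10), beside 3.23% of all genes, and 9 rose without NF replicate 1 (beside 11%), with a median log2 fold change of 1.12 against 0.81 over all libraries. B2m, the shared light chain of class I molecules, was at 914, 1153 and 1157 CPM, 1044 CPM in NF replicate 1, and 511 and 510.5 CPM in NF replicates 2 and 3. Its log2 fold change was 1.09 ± 0.20 when NF replicate 1 was left out (edgeR adjusted p = 0.0104) and 0.64 over all libraries. H2-D1 and H2-K1, which present peptides to T cells, separated the groups with smaller log2 fold changes of 0.32 and 0.62 over all libraries. Class I heavy chain genes, and Ifit3 with Ifit3b, are close copies of each other, so the split of reads among them is uncertain. Leukocyte markers differed between the same libraries, with a median log2 fold change of -1.76 without NF replicate 1 and -1.13 over all libraries. The calls of these markers without NF replicate 1 stand beside 7.04% of all genes called lower. Of 11 tested without NF replicate 1, 2, Ptprc and Tyrobp, fell, and 0 to 3 fell with a further library left out, with 0 without NF replicate 2. The summed level of this list was 77.2, 66.3 and 46.4 CPM in the labelled-deficient libraries and 95.3, 255 and 72.9 CPM in NF. Lyz2, the lysozyme of macrophages, was at 1.22, 1.82 and 0 CPM and at 0.317, 5.67 and 6.09 CPM, and Cd3e, of T cells, had no more than 3 counts over the 6 libraries. The part of such cells in the interferon, class I and chemokine values was not tested.

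Several genes of the matrix were higher in every labelled-deficient library than in any NF library, replicate 1 included. Of 23 collagens, 5 were higher in every labelled-deficient library (Col1a1, Col1a2, Col3a1, Col5a1 and Col15a1) and 0 were lower in every one, beside 3.23% and 3.64% of all genes. Without NF replicate 1, 11 rose (beside 11% of all genes) and 1, Col27a1, fell, with a median log2 fold change of 1.09, and with a further library left out 6 to 9 rose. Col1a1, a chain of type I collagen, was at 335, 309 and 235 CPM in the labelled-deficient libraries and 218, 144 and 85.6 CPM in NF. Col1a2, the partner chain, was at 363, 385 and 459 CPM and 353, 106 and 58.8 CPM. Col15a1, a collagen of basement membrane zones, was at 71.5, 27.7 and 40.5 CPM and 21.7, 9.85 and 8.68 CPM. In all 3, NF replicate 1 was the highest NF library and only just under the lowest labelled-deficient one for Col1a2. Over all libraries the log2 fold changes were 0.97, 1.22 and 1.80, with none called.

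Fn1, the fibronectin that cells assemble into matrix, did not separate the groups. It was at 4820, 4437 and 8111 CPM in the labelled-deficient libraries, 6885 CPM in NF replicate 1, and 1563 and 726 CPM in NF replicates 2 and 3. NF replicate 1 exceeded 2 labelled-deficient libraries. The log2 fold change without NF replicate 1 was 2.35 ± 0.40 (edgeR adjusted p = 0.00927), against 0.92 over all libraries. Of 34 matrix glycoproteins and laminins, 2 were higher in every labelled-deficient library, Fbn1 and Ltbp1, beside 3.23% of all genes. The calls of this list without NF replicate 1 stand beside 11% of all genes higher and 7.04% lower. Without NF replicate 1, 10 rose, among them Lama5, Lamc1, Hspg2 and Tnc, and Emilin1 fell, and with a further library left out 7 to 12 rose and 0 to 3 fell. Among integrins, the receptors for this matrix, 3 of 20 were higher in every labelled-deficient library (Itga8, Itgb8 and Itga11, the last under 0.20 CPM throughout) and 1, Itga3, was lower, beside 3.23% and 3.64% of all genes. Without NF replicate 1, 6 rose (beside 11% of all genes) and 0 fell, and with a further library left out 1 to 5 rose. The count was 1 without labelled-deficient replicate 3 or NF replicate 2, 2 without labelled-deficient replicate 1 and 3 without NF replicate 3. Of 26 matrix proteases and inhibitors, 4 were higher and 5 lower without NF replicate 1, beside 11% and 7.04% of all genes, and with a further library left out 3 to 6 were higher and 0 to 4 lower, with 0 lower without NF replicate 2. Of 23 fibroblast markers tested without NF replicate 1, 7 rose (Fn1, Ddr2, Prrx1, Col3a1, Col1a2, Col1a1 and Cd34) and 0 fell. Among all genes, 11% rose and 7.04% fell there. The median log2 fold change of these markers was 0.17 in that fit. Dcn, a small proteoglycan, was at 90.0, 84.9 and 6.06 CPM in the labelled-deficient libraries and 17.0, 379 and 252 CPM in NF, so labelled-deficient replicate 3 and NF replicate 1 were both low. Fewer cells of a type and less RNA per cell cannot be told apart in these bulk libraries. Of the markers of other cells, 2 of 18 myofibroblast genes (Fn1 and Tnc) and 2 of 9 pericyte genes (Cspg4 and Notch3) rose without NF replicate 1. Of 3 adipocyte genes, 1 (Fabp4) fell. Beside them, 11% of all genes rose and 7.04% fell. The median log2 fold change of the myofibroblast list was -0.05 in that fit. Cspg4 was at 829, 540.4 and 1131 CPM in the labelled-deficient libraries and at 803, 246 and 151 CPM in NF; its part in these results was not tested.

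Genes of the ATF4 stress response, which takes up and builds amino acids when these run short, changed in the same libraries. The letters TGATGNAA of the amino acid response element were searched in the same way. They were in 7 of 19 list genes found in the promoter table (36.8%), against 4.51% of all genes there. As for the interferon list, such a share describes the list and not a change in these libraries. Stretches for the 3 called members with the largest fold change and a match are printed as above. They are chr3:50443623-50443709 for Slc7a11, chr6:7693210-7693262 for Asns and chr7:126625543-126625610 for Nupr1, all on the minus strand, with 2, 1 and 1 matches.
Slc7a11: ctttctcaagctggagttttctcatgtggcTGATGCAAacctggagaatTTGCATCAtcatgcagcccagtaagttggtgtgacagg
Asns: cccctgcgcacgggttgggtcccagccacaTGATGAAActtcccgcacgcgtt
Nupr1: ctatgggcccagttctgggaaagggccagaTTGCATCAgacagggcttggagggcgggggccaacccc

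Asns, which makes asparagine, was at 312.5, 345 and 436 CPM in the labelled-deficient libraries, 417 CPM in NF replicate 1, and 116 and 126 CPM in NF replicates 2 and 3. Slc7a11, the cystine importer, was at 285, 276 and 432 CPM, 458 CPM in NF replicate 1, and 110 and 49.5 CPM in the others. Nupr1, a small stress-induced nuclear protein, was at 167, 138 and 206 CPM, 212 CPM in NF replicate 1, and 63.4 and 64.9 CPM in the others. Slc7a11 and Nupr1 were highest in NF replicate 1 of all 6 libraries, and the groups overlapped for all 3. With all libraries, 0 of 22 genes of the list were called. Of the 22, 2, Vldlr and Slc7a3, were higher in every labelled-deficient library, beside 3.23% of all genes. Without NF replicate 1, 12 rose (beside 11% of all genes) and 0 fell, with a median log2 fold change of 1.07 against 0.58 over all libraries, and with a further library left out 9 to 16 rose. Antioxidant genes controlled by NRF2, among them Slc7a11 and the haem-degrading enzyme Hmox1, rose in 7 of 20 cases without NF replicate 1 (beside 11% of all genes) and fell in 0. The median log2 fold change of the list was 0.41 in that fit and 0.16 over all libraries. With a further library left out 3 to 10 rose, the fewest without labelled-deficient replicate 3, and the median ranged from 0.24 to 1.22. Hmox1 had a log2 fold change of 2.33 ± 0.35 (edgeR adjusted p = 0.00644), against 0.74 over all libraries.

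Genes of G2 and mitosis were higher in 41 of 50 cases without NF replicate 1 (beside 11% of all genes) and lower in 0, with a median log2 fold change of 0.94. With a further library left out, 23 to 37 rose, the fewest without NF replicate 2 and 25 without labelled-deficient replicate 3. With all libraries 0 were called, 0 separated the groups (beside 6.87% of all genes), and the median was 0.48. The list mean of NF replicate 1 lay among those of the labelled-deficient libraries. Anln, a scaffold of the cleavage furrow, was at 334, 309 and 429 CPM in the labelled-deficient libraries, 392 CPM in NF replicate 1, and 109 and 123 CPM in NF replicates 2 and 3. Its log2 fold change was 1.64 ± 0.18 without NF replicate 1 (edgeR adjusted p = 0.00291) and 0.78 over all libraries. Top2a, the topoisomerase of chromosome condensation, was at 415, 351 and 479 CPM, 429 CPM in NF replicate 1, and 212 and 278 CPM in the others. Of 46 genes of DNA replication, 2 rose (Cdt1 and Pole) and 7 fell without NF replicate 1, together near the 18% of all genes called there. With a further library left out, whichever it was, 1 to 4 fell and 0 to 2 rose. Mcm4, a subunit of the replicative helicase, was at 95.4, 103 and 94.0 CPM, 86.7 CPM in NF replicate 1, and 153 and 133 CPM in the others. Of the 46, 2, Pcna and Slbp, were lower in every labelled-deficient library than in any NF library, beside 3.64% of all genes. Their log2 fold changes were -0.34 and -0.44 over all libraries.

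Wnt target genes, readouts that the genotype label points to, showed no common direction. Of 18 tested Wnt target genes, 0 were called with all libraries. Of the 18, 1, Sox9, was lower in every labelled-deficient library, beside 3.64% of all genes. Without NF replicate 1, Myc and Ccn4 rose and Nkd2 and Axin2 fell, so that 4 of 18 were called beside 18% of all genes. The list's median log2 fold change was -0.12 over all libraries and -0.03 without NF replicate 1. Axin2, a negative feedback gene of the pathway, was at 1.93, 1.25 and 0.635 CPM in the labelled-deficient libraries and 0.824, 4.22 and 3.20 CPM in NF. Sox9, a transcription factor of cartilage and stem cells, was at 174, 179 and 172 CPM and 188, 234 and 256 CPM. Ccnd1, the cyclin that starts the cell cycle, was at 2381, 2585 and 3191 CPM and 2628, 2087 and 2265 CPM. Axin2 and Ccnd1 overlapped between the groups, and Axin2 in NF replicate 1 was within the labelled-deficient range. The log2 fold change of Axin2 without NF replicate 1 was -1.54 ± 0.46 (edgeR adjusted p = 0.0465), against -1.13 over all libraries.

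Of the ligands and receptors of the pathway, Fzd4 rose and Wnt7b and Wnt11 fell without NF replicate 1, out of 28 tested. In that fit 18% of all genes were called. The median log2 fold change of this list was -0.42 there and -0.27 over all libraries. Wnt7b, a ligand, was at 40.0, 33.2 and 8.31 CPM in the labelled-deficient libraries, 17.6 CPM in NF replicate 1, and 188 and 82.0 CPM in NF replicates 2 and 3. Of 29 genes of the destruction complex and its TCF partners, Dvl2 and Apc2 rose and Axin2 fell without NF replicate 1. Beside these, 11% of all genes were called higher and 7.04% lower. Apc2, a relative of the scaffold APC, was at 4.31, 5.71 and 4.16 CPM and at 3.67, 2.05 and 1.48 CPM in NF. It was 1 of 3 members, with Csnk1a1 and Tcf7l2, that were higher in every labelled-deficient library, and 2 were lower in every one. The shares over all genes were 3.23% and 3.64%. Cadherins and catenins, the adhesion partners of beta-catenin, had 0 of 22 members called in either direction without NF replicate 1, beside 18% of all genes. Ctnnd1, the catenin p120, was at 30.1, 29.7 and 28.6 CPM in the labelled-deficient libraries and 30.2, 43.6 and 36.1 CPM in NF.

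**Figure D4:**
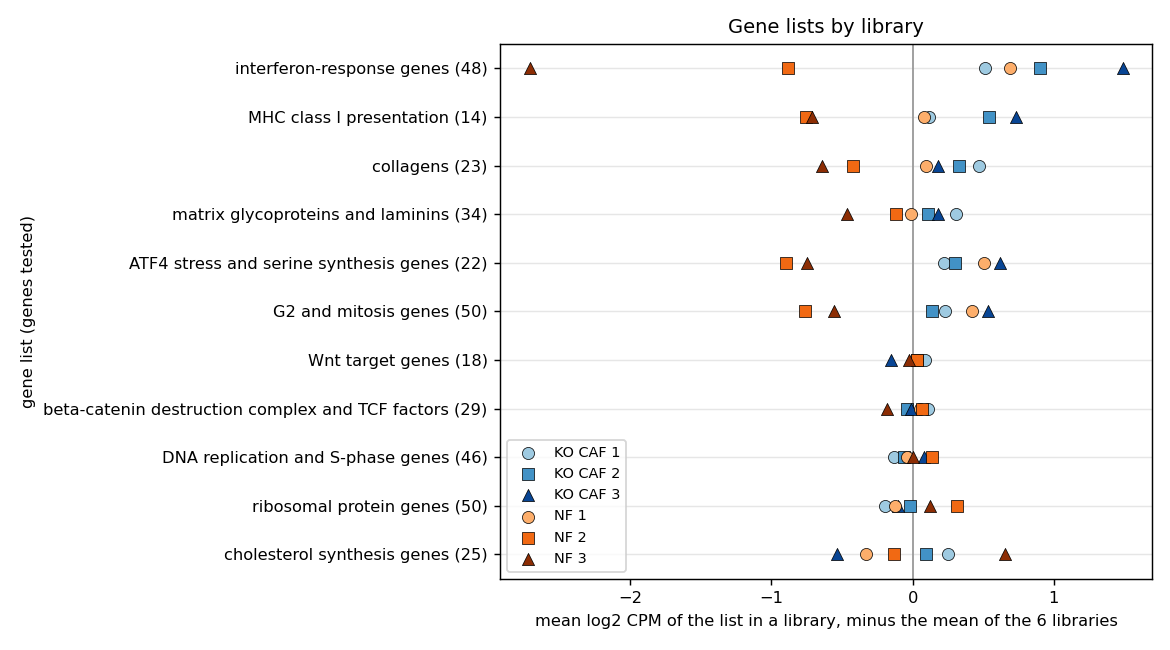
Mean log2 CPM of the tested genes of 11 lists in each library, after subtracting the mean of the 6 libraries for that list. For interferon, class I presentation, ATF4 and mitosis genes, NF 1 (light orange circle) lies with the KO CAF libraries (blue). The list means of Wnt target and destruction complex genes vary less between libraries.

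Signalling and secreted factors were called in both directions without NF replicate 1, where 11% of all genes were higher and 7.04% lower. Of 19 chemokines and cytokines, 4 rose (Csf1, Ccl5, Tslp and Il6) and 3 fell (Ccl2, Ccl7 and Ccl9), and with a further library left out 2 to 5 rose and 0 to 4 fell, with 0 lower without labelled-deficient replicate 1. The median log2 fold change of the list was -0.71, and -0.44 over all libraries. Csf1, the growth factor of macrophages, was at 272, 249 and 345 CPM in the labelled-deficient libraries, 255 CPM in NF replicate 1, and 87.9 and 47.6 CPM in NF replicates 2 and 3. Ccl2, which attracts monocytes, was at 49.0, 67.2 and 22.4 CPM, 21.6 CPM in NF replicate 1, and 157 and 119 CPM in the others. The lowest library for Ccl2 was NF replicate 1, which was within the labelled-deficient range for Csf1. Of 25 TGF-beta and BMP genes, Grem1 and Bmp6 rose and Bmp2, Id1, Id2 and Id3 fell, and with a further library left out 0 to 3 fell, with 0 without labelled-deficient replicate 3. The median log2 fold change of this list was -0.16, and -0.14 over all libraries. Grem1, a secreted BMP inhibitor, was at 3259, 3721 and 4089 CPM, 4271 CPM in NF replicate 1, and 1124 and 1343 CPM in the others. Of 21 YAP and TEAD targets, 7 rose and 1, Tead4, fell, and with a further library left out 6 to 7 rose and 0 to 3 fell. The list had a median log2 fold change of 0.51 against 0.23 over all libraries. Its members Crim1 and Lats2, 2 of 21, were higher in every labelled-deficient library than in any NF library, beside 3.23% of all genes.

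Immediate early genes, which respond within minutes to serum or handling, had 4 of 19 members higher and 5 lower without NF replicate 1, beside 11% and 7.04% of all genes, and 1 to 4 higher and 1 to 6 lower with a further library left out. Without labelled-deficient replicate 3 both counts were 1. The median log2 fold change of these genes was -0.31, and -0.20 over all libraries. Egr1, a transcription factor of this class, was at 82.0, 86.6 and 57.9 CPM in the labelled-deficient libraries, 51.0 CPM in NF replicate 1, and 239 and 163 CPM in the others. Ribosomal protein genes, which are uncertain because of their many processed copies, had 0 of 51 higher and 4 lower, or 0 to 6 lower with a further library left out. The ribosomal counts, too, are without NF replicate 1 and stand beside 11% of all genes higher and 7.04% lower. The summed level of the ribosomal list was 5776 to 6445 CPM in the labelled-deficient libraries, 6169 CPM in NF replicate 1, and 7317 and 7051 CPM in the others. Whether this bears on the other lists was not tested. Cholesterol synthesis genes had 1 of 25 members called without NF replicate 1, Mvk, lower, beside 18% of all genes called there. Their summed level was 2094, 1880 and 1369 CPM in the labelled-deficient libraries and 1437, 1703 and 3065 CPM in NF, so NF replicate 3 was the highest and labelled-deficient replicate 3 the lowest.

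The spread within NF exceeded that within the labelled-deficient group for most genes. The median SD of log2 CPM was 0.38 in NF and 0.18 in the labelled-deficient group, and the SD was larger in NF for 81.9% of genes. With NF replicates 2 and 3 alone, the median SD was 0.21, and it was larger in NF for 56.1% of genes. An SD of 2 libraries tends to come out lower than one of 3, so these values are not on a par. By median absolute difference, NF replicates 2 and 3 were 0.30 apart, against 0.15, 0.24 and 0.22 for pairs of labelled-deficient libraries. An SD over 1 was found for 11.4% of genes in NF and for 2.59% in the labelled-deficient group. Without labelled-deficient replicate 3 the median SD of that group was 0.11, which again rests on 2 libraries. NF replicate 1 was at least 2-fold above both other NF libraries for 1162 genes and below both for 922, compared with 369 and 202 genes for NF replicate 2 and 358 and 716 for NF replicate 3.

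The genes that set single NF libraries apart were unlike each other. NF replicate 1 exceeded its group in Ak5, Abca8b, Adamtsl3, Tenm4, Cxadr, Sh2d6, Atp6v0d2 and Tac1. Tenm4, a teneurin of cell contact, was at 123 CPM in NF replicate 1 and 14.9 and 3.02 CPM in NF replicates 2 and 3, with 97.0, 79.0 and 159 CPM in the labelled-deficient libraries. Tac1, the precursor of substance P, was at 13.3 CPM in NF replicate 1 and 8.55, 2.70 and 2.19 CPM in the labelled-deficient libraries, and Sh2d6 was at 52.6 CPM and 30.6, 40.6 and 42.4 CPM. For both, NF replicate 1 was the highest of the 6 libraries. Far lower in NF replicate 1 than in its group were Hal, Cdh17, Rab15, Rasl12, Mt4, Btn1a1, Fam84a and Angptl4. Rab15, a GTPase of endosome recycling, was at 4.50 CPM in NF replicate 1 and 102 and 91.1 CPM in the others. In the labelled-deficient libraries it was at 30.7, 26.1 and 1.33 CPM, so replicate 3 alone was as low as NF replicate 1. Each of these 8 low genes had that form, with labelled-deficient replicates 1 and 2 between NF replicate 1 and the highest NF library.

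NF replicate 2 was high in Lcn2, Prl2c2, Serpinb2 and Slpi, secreted or protease-inhibiting proteins, and low in Crabp1, Capn6, Chac1 and Hmcn1. Crabp1, a carrier of retinoic acid, was at 55.8 CPM in NF replicate 2 and at 313 to 485 CPM in the other 5 libraries. Slpi was at 30.9 CPM in NF replicate 2 and at 1.35 to 4.62 CPM in the others. NF replicate 3 was high in Cnr1, Cttnbp2, Cftr and Gal and low in Cxcl10, Csn3, Apol9b and Ifi206, of which Cxcl10, a chemokine, Apol9b and Ifi206 are known to respond to interferon. These genes were chosen for their gap within NF, so the values are descriptions.

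Labelled-deficient replicates 1 and 2 held an even share of the genes that marked NF replicate 3. For 13 genes, NF replicate 3 was at 5 CPM or more and at least 8-fold above both NF replicate 2 and labelled-deficient replicate 3, a choice that uses none of the other 3 libraries. Between the CPM of labelled-deficient replicate 3 (0) and that of NF replicate 3 (1), labelled-deficient replicate 1 had a median place of 0.32 (0.20 to 0.59) and replicate 2 a median place of 0.30 (0.25 to 0.55). NF replicate 1 had a median place of 0.02 (-0.03 to 0.19). Cftr, a chloride channel, was at 39.1, 36.5 and 1.67 CPM in the labelled-deficient libraries and 3.93, 6.87 and 117 CPM in NF. Aqp3, a water and glycerol channel, was at 78.7, 70.8 and 0.577 CPM and 2.22, 18.0 and 239 CPM. Slc14a1, a urea transporter, was at 160.2, 142 and 16.1 CPM and 17.4, 56.7 and 456 CPM. In each, labelled-deficient replicates 1 and 2 stood at about the same share of NF replicate 3, apart from both labelled-deficient replicate 3 and NF replicate 1. A choice of 4-fold gave 53 genes with medians of 0.34 and 0.31, and 16-fold gave 4 genes with medians of 0.28 and 0.29.

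**Figure D5:**
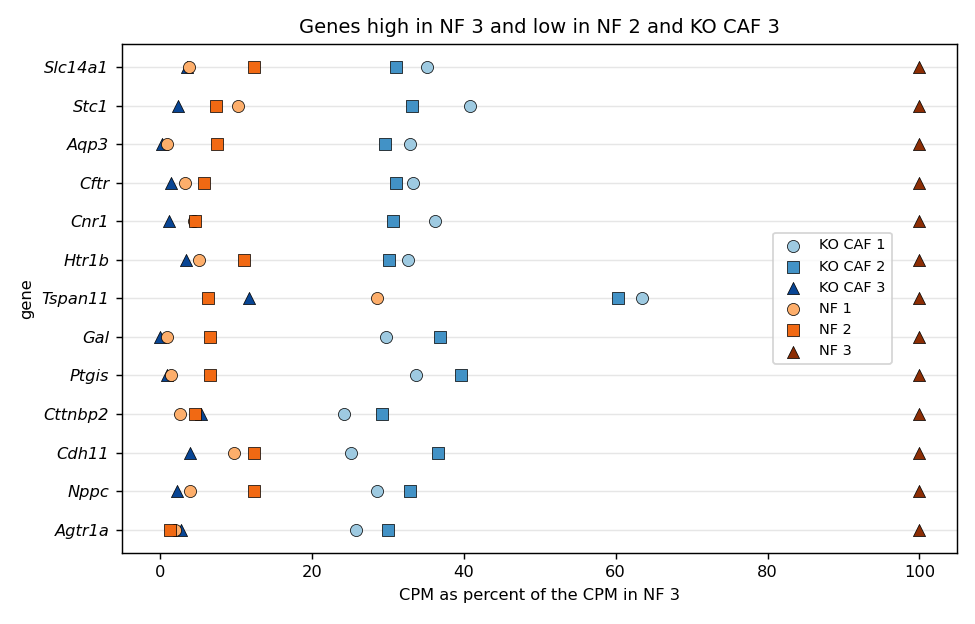
CPM of 13 genes in each library as a percent of the CPM in NF 3, for genes chosen as at least 8-fold higher in NF 3 than in NF 2 and KO CAF 3. KO CAF 1 and KO CAF 2 lie together between NF 3 and the other libraries for every gene, and NF 1 lies near KO CAF 3 except for Tspan11.

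Genes that marked NF replicate 2 were not shared in this way. For 18 genes at least 8-fold above NF replicate 3 and labelled-deficient replicate 3, the median places of labelled-deficient replicates 1 and 2 toward NF replicate 2 were 0.04 and 0.02, and that of NF replicate 1 was 0.04. In the other direction, 45 genes were at least 8-fold higher in labelled-deficient replicate 3 than in NF replicates 2 and 3. Toward labelled-deficient replicate 3, the median places were 0.47 and 0.58 for labelled-deficient replicates 1 and 2 and 0.61 for NF replicate 1, so all 3 medians lay between the ends. What gave these libraries their places was not tested.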

How the data were processed

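Total RNA had been extracted with a column kit and sequenced by Illumina methods, per the labels' protocols. The authors deposited raw counts of reads for each Ensembl gene, not normalised. The submitters' processing notes name bcl2fastq, TopHat, edgeR and build mm10. The sources used here do not give versions, the counter, its strand setting or the annotation, so antisense and overlapping genes cannot be separated.

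Groups came from source and genotype labels. Of 51912 genes, 51633 had a symbol for their Ensembl ID, with coordinates from GENCODE on GRCm38. Genes were kept with filterByExpr, scaled by TMM and tested in 1 edgeR 4.0.16 quasi-likelihood fit of all 9 libraries (R 4.3.3, group as the only term), with Benjamini-Hochberg adjustment and calls under 0.05. Standard errors came from the F statistic. Library differences, SDs and places of NF replicate 1 used log2 CPM with a prior count of 2, and the places among single-library genes used CPM. A total of 3 counts in 1 of the 6 libraries equals 0.128 to 0.193 CPM after TMM scaling, a limit of counting only. The method was tested on simulated data.

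The members and the 38 gene lists were chosen with earlier results of these data known. Named genes were Ctnnb1, the 10 widest gaps between groups in each direction, the 10 largest changes in each direction without NF replicate 1 among genes that did not overlap, the widest gaps of single NF libraries, the most abundant markers and the most abundant members of lists; other called or separated members, genes with promoter matches, genes that DESeq2 called, genes of the places between libraries and further members of lists were named with their values known. One gene that the rule names is not reported here. The alternatives tried were RLE and total-count scaling, 2 other filters, DESeq2 1.42.0, limma-voom (limma 3.58.1), a fit of only the 6 libraries, a 1.5-fold minimum in the test, and each library left out in turn; alternatives for the fit without NF replicate 1 were added after seeing the data.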

Additional observations from a re-analysis of the deposited data

How the results depend on the processing

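Leaving out NF replicate 1 was the one choice that gave many calls. Over the 6 libraries left out in turn, calls ranged from 0 to 1620 higher and from 0 to 1039 lower, and all counts above 0 came without NF replicate 1. Genes above all NF libraries ranged from 741 to 4051 and genes below from 781 to 3886, each over the genes tested in that setting. Groups of 3 and 2 libraries separate more easily than groups of 3 and 3. These counts were above the 462 and 521 of all libraries whichever library was left out. Without a filter the counts were 741 and 888, and with only the 6 libraries compared 518 and 386. DESeq2 called 6 genes higher and the fit without a filter 1, Igsf10. The median SD of NF ranged from 0.22 to 0.38 and that of the labelled-deficient group from 0.11 to 0.18. Where a group lost a library, its SD rests on 2 libraries and tends to come out lower. The log2 fold change of Ctnnb1 ranged from -0.23 to -0.10, with no call in any setting. Without NF replicate 1, other scalings, filters, tools or sets of libraries gave 1368 to 2113 genes higher and 737 to 1711 lower. There, 365 and 18 passed a test beyond 1.5-fold, and leaving out a further library gave 762 to 1179 higher and 254 to 987 lower; where this leaves 1 NF library, it is assumed to vary like the other groups. Of the 2659 genes called there, 2581 were also called by DESeq2, 2536 by limma-voom and 992 without labelled-deficient replicate 3. The causes were not tested. No paired analysis was possible because the replicate numbers follow the order of the records and pair no libraries.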

Other observations

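The INK4 locus on chromosome 4 was nearly silent in all 6 libraries, although its neighbour was not; these genes were chosen after their values were seen. Cdkn2a, which encodes the cell cycle inhibitor p16 and the p53 activator p19, was at 0, 0 and 0.0577 CPM in the labelled-deficient libraries and 0.190, 0 and 0 CPM in NF. Cdkn2b, its neighbour and relative, stayed at or under 1.58 CPM. Mtap, a metabolic enzyme encoded beside them, was at 810, 863 and 941 CPM in the labelled-deficient libraries and 850.3, 751.5 and 695.5 CPM in NF.

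Xist, the RNA that silences 1 X chromosome in female cells, stood at 665, 799 and 923 CPM in the labelled-deficient libraries and at 861, 283 and 460 CPM in NF, while the Y-linked Ddx3y, Eif2s3y, Kdm5d and Uty stayed under 0.26 CPM in all 6. NF replicate 1 was again within the range of the labelled-deficient libraries and NF replicates 2 and 3 were lower.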
